A study of Homo sapiens with 6 samples.

Results

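The 57 genes described here build the DNA replication machinery, from the origin recognition complex to chromatin assembly behind the fork, and were taken by gene name from a list. All 57 names were found among the 58735 genes of an RNA-seq table from PC9-BrM3, a line selected for growth in the brain from PC9 lung adenocarcinoma cells. BrM3-shAKR1B10 cells carried shRNA against AKR1B10 and BrM3-shNC cells carried negative control shRNA, with 3 libraries each. Both groups were kept under routine culture, the labels give the genotype of the controls as WT, and the knockdown group stands for a single shRNA vector in a single line. The study's methods speak in general of at least 3 independent experiments, but neither they nor the labels say that these libraries came from separate cultures, so p-values measure only the spread between these libraries, which may be technical. The comparison asks how the replication genes differed once AKR1B10 was silenced.

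Replication starts at origins, where the origin recognition complex (ORC) with CDC6 and CDT1 loads the MCM2-7 helicase in G1 phase. In S phase the kinase CDC7 with its activator DBF4 and a set of firing factors convert MCM2-7 into the active CMG helicase by adding CDC45 and the GINS complex. Polymerase alpha-primase then lays down primers, polymerase epsilon and polymerase delta extend the leading and lagging strands, PCNA clamps them to DNA after loading by RFC, RPA coats single strands, and chromatin assembly factor 1 (CAF-1) places histones on the new duplex. Many of these genes are transcribed under the E2F factors, and their mRNA is known to be high in proliferating tumor cells.

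AKR1B10, the aldo-keto reductase that was silenced, stood at 108, 107 and 110 FPKM in BrM3-shAKR1B10 and at 799, 775 and 772 FPKM in BrM3-shNC. FPKM is fragments per kilobase of gene, scaled by a size set for each library. The groups were far apart, and the knockdown level was 13.9% of the control (log2 fold change -2.85, SE 0.03, limma with Benjamini-Hochberg adjustment, adjusted p = 1.6e-07). For 1 gene alone, 3 against 3 libraries allow an exact two-sided permutation p no lower than 0.10. Between 16964504 and 18709028 reads fell on genes in a library. The sizes behind FPKM were 17669819, 18053520 and 17733980 in BrM3-shAKR1B10, above the reads on genes of 17253067, 17657547 and 17399483. In BrM3-shNC they were 18350584, 16911164 and 18250036, below 18709028, 16964504 and 18488933. This sets knockdown values lower against controls than the reads on genes would. Scaling to reads on genes was not run, and calls near the fold threshold may depend on it. Epithelial markers such as EPCAM, KRT8 and KRT18 were expressed in all libraries and none of the 7 tested of 11 was called, whereas the lung markers NKX2-1, NAPSA, SFTPB and SFTPC lay under 1 FPKM. Of 12 markers of immune, endothelial, stromal and neural cells, 11 had a mean under 1 FPKM and COL1A2 was at 0 in every library. COL1A1, the exception, was lower in BrM3-shAKR1B10, and the summed level of the 12 markers ranged from 1.71 to 1.89 FPKM there and from 2.76 to 2.94 FPKM in BrM3-shNC. Their part in the results was not tested.

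Replication genes were lower after AKR1B10 knockdown across most of the machinery, and none was called higher. The call required an adjusted p under 0.05 and a log2 fold change beyond 0.5 on the log2(FPKM + 0.1) scale, which understates the change of low genes. Of 56 genes with a mean of at least 1 FPKM, 24 were called lower, or 42.9%, against 7.45% of the 13150 genes tested. Higher calls made up 5.83% of all genes tested and 0 of the 56. At the same p threshold and any fold, 46 were lower (82.1%, against 23.1% of all genes) and 0 were higher (against 19.4%). In 48 genes the 3 knockdown values lay below the 3 control values (85.7%, against 29.2% of all genes), in none did they lie above (against 25.5%), and in 8 the groups overlapped. The median log2 fold change was -0.43, from -1.07 for POLE3 to 0.17 for POLD4, whereas the median of all genes tested was -0.01.

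The shift was of the same size in each knockdown library. Relative to the control mean, the median replication gene stood at -0.46, -0.45 and -0.46 on the log2 scale in BrM3-shAKR1B10 libraries 1, 2 and 3, and between -0.01 and 0.01 in the control libraries. In bulk RNA, fewer cells in S phase and less of these mRNAs per cell cannot be told apart. A list of 30 G2/M phase genes, which peak after replication, moved alongside, with all 30 called lower and a median of -1.13, a larger median fall than in any replication group below. Its part in the results was not tested. In 8 housekeeping genes the median was -0.12 and none was called, although 3 were lower at any fold. When all libraries were centred on those 8 genes, 18 replication genes were called lower and 0 higher, and calls over all genes turned from 980 lower and 766 higher to 687 lower and 1161 higher.

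**Figure D1:**
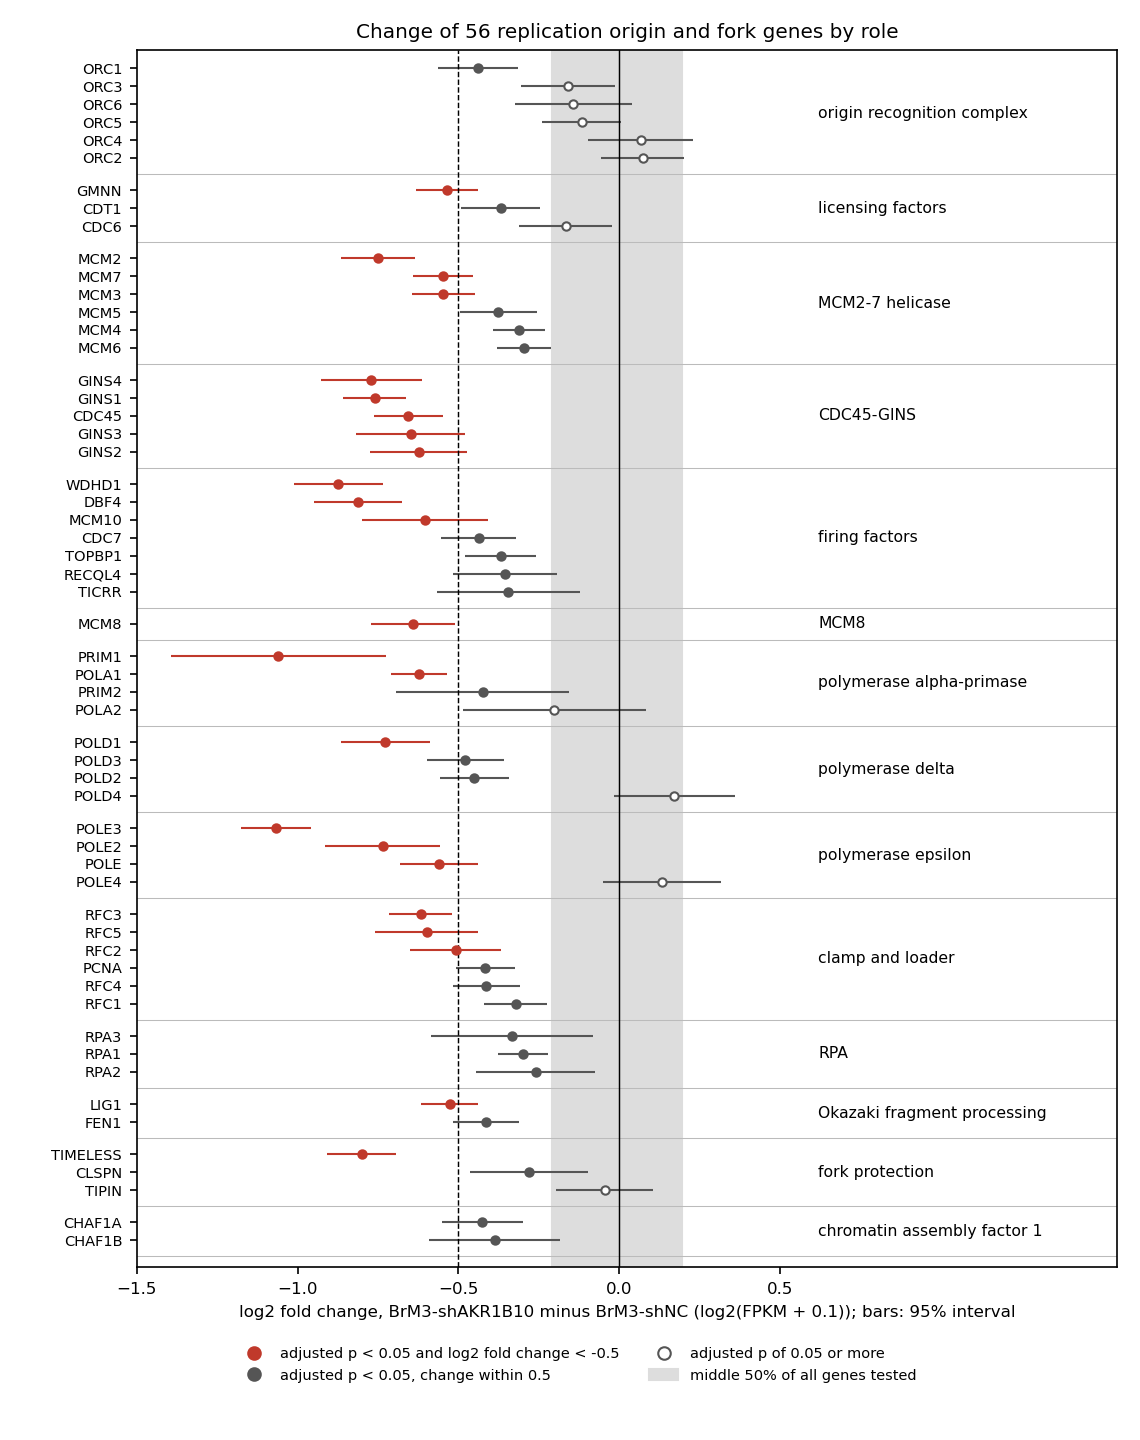
Log2 fold change of the 56 tested genes (x axis, BrM3-shAKR1B10 minus BrM3-shNC on log2(FPKM + 0.1)), grouped by role, with bars for 95% intervals and the middle 50% of all genes tested in grey. CDC45 and the GINS genes all lie left of -0.5, ORC genes lie near 0 except ORC1, and POLD4 and POLE4 are the only polymerase subunits right of 0.

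The promoters of these genes carry E2F words more often than promoters at large. RefSeq promoters (GRCh38.p14, 250 bases before to 50 bases after the start) were at hand for 50 of the 57 genes. The E2F words searched on both strands were TTTCCCGC, TTTCGCGC, TTTGCCGC and TTTGGCGC, of which TTTCGCGC and TTTGGCGC can overlap each other on opposite strands. At least one was found in 21 of the 50 promoters (42%) against 3.325% of 27305 promoters, and before the start only in 13 (26%) against 2.787%. For this and the words below, the 27305 promoters were neither limited to expressed genes nor matched for base composition. The stretches below are a selection of those that hold the word in genes of the helicase, the polymerases and the clamp with its loader. All lie before the start of a single RefSeq entry taken for each gene, with the words in capitals. By the GENCODE 29 positions, the stretches of MCM7, GINS2, RFC3 and POLE4 lie within the gene, and that of POLE lies partly within it. GCGGGAAA, GCGCGAAA and GCGCCAAA are words read on the opposite strand.
MCM6, helicase, chr2:135876560-135876619, minus strand: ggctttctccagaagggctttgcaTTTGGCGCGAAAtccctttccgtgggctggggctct
MCM7, helicase, chr7:100101551-100101610, minus strand: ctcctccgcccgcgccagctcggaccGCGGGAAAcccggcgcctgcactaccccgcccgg
GINS2, GINS complex, chr16:85688955-85689014, minus strand: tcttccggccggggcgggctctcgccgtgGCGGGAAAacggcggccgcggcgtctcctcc
POLA1, polymerase alpha, chrX:24693755-24693814, plus strand: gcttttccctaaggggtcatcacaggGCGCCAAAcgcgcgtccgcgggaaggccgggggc
POLE, polymerase epsilon, chr12:132687343-132687402, minus strand: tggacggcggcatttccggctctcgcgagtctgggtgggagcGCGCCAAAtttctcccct
POLE4, polymerase epsilon, chr2:74958583-74958642, plus strand: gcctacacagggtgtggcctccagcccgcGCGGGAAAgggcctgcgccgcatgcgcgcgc
PCNA, clamp, chr20:5126648-5126707, minus strand: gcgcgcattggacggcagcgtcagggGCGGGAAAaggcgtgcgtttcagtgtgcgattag
RFC3, clamp loader, chr13:33818068-33818127, plus strand: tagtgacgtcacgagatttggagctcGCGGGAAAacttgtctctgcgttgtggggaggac

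Genes with and without the word were found both among those called lower and among the rest, and the difference between them was not tested. Among genes with a promoter entry, 12 of 23 called lower held an E2F word, and so did 9 of 27 that were not called or not tested. Before the start only, these counts were 7 of 23 and 6 of 27. The median log2 fold change was -0.55 in the 21 genes with a word and -0.43 in the 28 tested genes without, with overlapping ranges of -0.76 to 0.13 and -1.07 to 0.17. The 5 genes with the largest falls (POLE3, PRIM1, WDHD1, DBF4 and TIMELESS) held none of the 4 words in this window, whereas POLE4, which was not called, did. The CCAAT word bound by NF-Y was found in 29 promoters (58%, against 35.7% of all). The word TTTGAA, the core of the cell cycle genes homology region of many G2/M promoters, was found in 1, that of DBF4 (2%, against 15.43% of all). A word is a description of the letters only, and its absence here draws nothing about the factor.

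Origin recognition genes changed least. None of the 6 was called and only ORC1 passed the p threshold, with a group median of -0.13. ORC1, the subunit whose amount is known to follow the cell cycle, stood at 8.52, 8.65 and 8.70 FPKM in BrM3-shAKR1B10 against 11.5, 11.2 and 12.6 FPKM in BrM3-shNC, without overlap (log2 fold change -0.44, SE 0.05, adjusted p = 8.7e-04). ORC4, part of the ORC ring, stood at 3.31, 3.31 and 3.47 against 3.43, 3.20 and 2.999 FPKM, and its groups overlapped (log2 fold change 0.07, 95% interval -0.10 to 0.23, adjusted p = 0.46). The other 4 ran from -0.16 for ORC3 to 0.07 for ORC2, with adjusted p between 0.0787 and 0.314. With centring on housekeeping genes the group median was -0.0311, and ORC2 was higher at the p threshold (log2 fold change 0.17, adjusted p = 0.0452). The ratio of ORC6, a loosely bound subunit, to ORC2 (of FPKM + 0.1 in each gene, as for all ratios given) was lower in all 3 knockdown libraries, at 1.20, 1.03 and 1.07 against 1.25, 1.24 and 1.34.

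Among the licensing factors, the inhibitor differed more than the loaders. GMNN encodes geminin, which binds CDT1 and blocks relicensing, and stood at 11.7, 11.4 and 11.2 FPKM in BrM3-shAKR1B10 against 17.4, 16.4 and 16.3 FPKM in BrM3-shNC. It was called lower (log2 fold change -0.54, SE 0.04, adjusted p = 1.4e-04). CDT1, the MCM loader that geminin inhibits, stood at 12.9, 12.04 and 13.6 against 16.4, 16.4 and 16.98 FPKM and was lower by less than the fold threshold (log2 fold change -0.37, adjusted p = 0.00181). CDC6, its partner in loading, overlapped between groups at 7.34, 6.52 and 6.89 against 7.96, 7.34 and 8.01 FPKM (log2 fold change -0.17, 95% interval -0.31 to -0.02, adjusted p = 0.0653). The CDT1 to GMNN ratio was higher in every knockdown library, at 1.10, 1.05 and 1.21 against 0.944, 0.998 and 1.04. The call for GMNN did not hold under quantile scaling or with centring on housekeeping genes, where its log2 fold change was -0.44 at the least.

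All 6 MCM2-7 genes were lower without overlap, and they differed among themselves in size. MCM2, a target of CDC7 kinase along with MCM4 and MCM6, stood at 18.1, 18.0 and 18.9 FPKM against 28.98, 31.6 and 32.1 FPKM and fell most (log2 fold change -0.75, SE 0.05, adjusted p = 7.4e-05). Of its exon bases, 22.7% are shared with AC023593.1 on the opposite strand, which held at most 11 reads. MCM3 stood at 23.2, 24.4 and 25.5 against 35.7, 35.5 and 35.6 FPKM (log2 fold change -0.55, SE 0.04, adjusted p = 1.3e-04). MCM7, the most abundant of the ring at 50.8, 49.9 and 49.2 against 69.7, 75.7 and 74.0 FPKM, fell by the same 0.55 on the log2 scale (SE 0.04, adjusted p = 1.1e-04). MCM6, with the smallest difference, stood at 23.7, 23.9 and 25.1 against 30.3, 29.3 and 29.6 FPKM (log2 fold change -0.30, SE 0.04, adjusted p = 9.4e-04). MCM4 and MCM5 lay between, at -0.31 and -0.37, and like MCM6 passed the p threshold but not the fold. The calls for MCM3 and MCM7 did not hold under quantile scaling or with centring on housekeeping genes, with values of -0.45 at the least.

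CDC45 and GINS, the parts that turn MCM2-7 into the CMG helicase, were the one group of several genes in which every gene was called lower. Their changes lay within a narrow range, from -0.62 to -0.77, with a median of -0.66. CDC45 stood at 8.35, 9.09 and 9.02 FPKM in BrM3-shAKR1B10 against 13.9, 13.8 and 14.2 FPKM in BrM3-shNC (log2 fold change -0.66, SE 0.04, adjusted p = 9.5e-05). GINS1 stood at 6.58, 6.90 and 6.79 against 11.6, 11.1 and 11.8 FPKM (log2 fold change -0.76, SE 0.04, adjusted p = 3.9e-05). The knockdown libraries lay well below the controls for both genes. GINS4, with the largest difference of the group, stood at 3.75, 3.45 and 3.66 against 6.70, 6.21 and 5.84 FPKM (log2 fold change -0.77, SE 0.07, adjusted p = 2.3e-04). GINS4 shares 21.2% of its exon bases with AC009630.2 on the opposite strand, which held at most 8 reads. GINS2, with the smallest, stood at 4.84, 4.24 and 4.63 against 7.16, 7.36 and 6.75 FPKM (log2 fold change -0.62, SE 0.06, adjusted p = 4.9e-04). GINS3 stood at 2.78, 2.51 and 2.54 against 4.39, 3.94 and 4.11 FPKM (log2 fold change -0.65, SE 0.07, adjusted p = 6.3e-04). The 4 GINS proteins form one ring-shaped complex, and the GINS2 to GINS3 ratio overlapped between groups. Over the 11 CMG genes together, 8 were called lower and all 11 passed the p threshold, with a median of -0.62, whereas 1 of the 9 licensing genes (ORC, CDC6, CDT1 and GMNN) was called, with a median of -0.16. These medians were not tested against each other.

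All 7 firing factors passed the p threshold and 3 were called lower. WDHD1, which tethers polymerase alpha to the helicase (GRCh38 chr14:54938950-55027105), stood at 3.11, 3.41 and 3.44 FPKM against 6.38, 6.06 and 6.05 FPKM (log2 fold change -0.87, SE 0.06, adjusted p = 8.6e-05). DBF4, the activator of CDC7 kinase (chr7:87876216-87909541), stood at 5.68, 5.44 and 5.34 against 10.4, 9.48 and 9.25 FPKM (log2 fold change -0.81, SE 0.06, adjusted p = 1.1e-04). Both genes were at little more than 50% of the control, with levels of 53.9% for WDHD1 and 56.4% for DBF4. MCM10, which helps activate the helicase, stood at 2.74, 2.92 and 3.11 against 4.94, 4.38 and 4.19 FPKM (log2 fold change -0.60, SE 0.08, adjusted p = 0.00159), and its call was lost with a pseudocount of 1, at -0.49. TICRR, which works with TOPBP1 to bring in CDC45, had the smallest difference, at 3.13, 3.45 and 3.07 against 4.27, 4.46 and 3.62 FPKM (log2 fold change -0.34, SE 0.09, adjusted p = 0.0245). It missed the p threshold without BrM3-shAKR1B10 library 1 or 3 or BrM3-shNC library 1 or 2, with adjusted p between 0.0716 and 0.0746. CDC7 (-0.44), TOPBP1 (-0.37) and the helicase RECQL4 (-0.36) passed the p threshold alone. The activator fell by more than its kinase, and the DBF4 to CDC7 ratio was 0.763, 0.766 and 0.783 in the knockdown libraries against 1.04, 0.982 and 0.983 in the controls.

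MCM8, a relative of the MCM genes whose product acts with MCM9 in recombination repair rather than at origins, was also called lower. It stood at 7.31, 7.45 and 8.04 FPKM against 12.5, 11.7 and 11.5 FPKM (log2 fold change -0.64, SE 0.05, adjusted p = 2.3e-04). Its fall lay in the range of CDC45 and GINS.

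**Figure D2:**
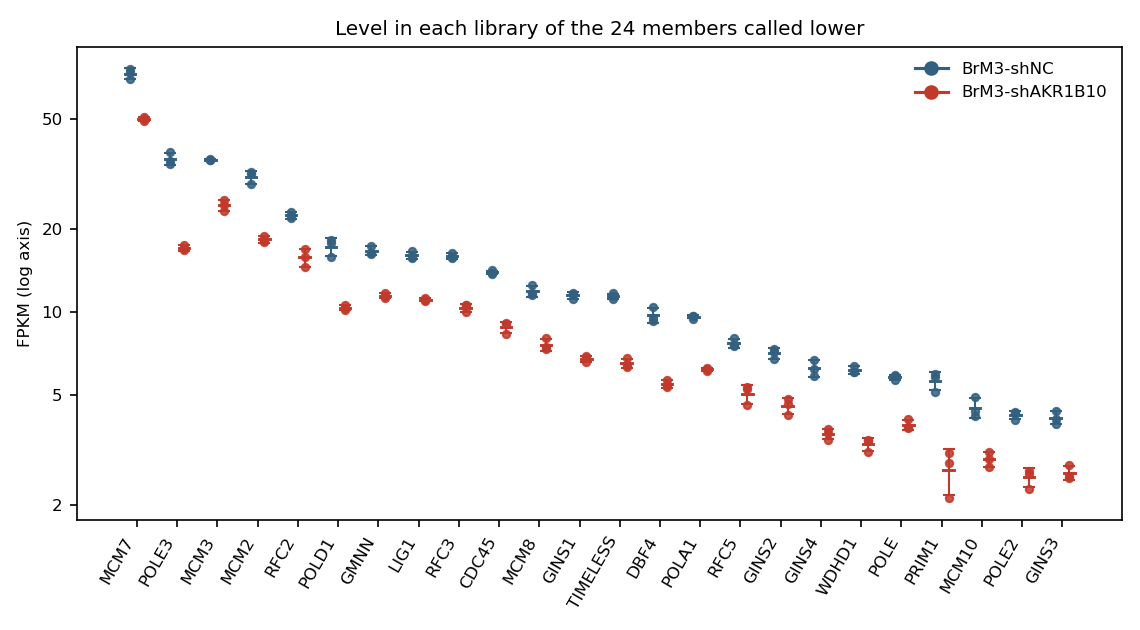
FPKM on a log axis in each library for the 24 genes called lower, ordered by level in BrM3-shNC, with the mean and SD of 3 libraries per group. In every gene all 3 BrM3-shAKR1B10 points lie below all 3 BrM3-shNC points. On the log axis PRIM1 has the widest spread among knockdown libraries, from 2.11 to 3.08 FPKM.

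Within the 3 replicative polymerases the subunits did not move together. Of 12 subunits, 6 were called lower, 9 passed the p threshold and 3 did not, with a median of -0.52. In polymerase alpha-primase, PRIM1, the catalytic primase subunit (chr12:56731596-56752373), stood at 2.11, 2.84 and 3.08 FPKM against 5.95, 5.14 and 5.80 FPKM, which is 47.5% of the control (log2 fold change -1.06, SE 0.14, adjusted p = 0.00142). PRIM1 went down to 91 reads in a library, the lowest count among the 56 replication genes tested. It shares 21.6% of its exon bases with neighboring genes, among them 1.35% with the abundant NACA on the same strand. Its log2 fold change lay between -1.16 and -0.90 when any 1 library was left out. POLA1, the catalytic polymerase subunit, stood at 6.11, 6.26 and 6.22 against 9.68, 9.65 and 9.46 FPKM (log2 fold change -0.62, SE 0.04, adjusted p = 5.5e-05). POLA2, its accessory subunit, had the lowest level of those 56 genes. It overlapped between groups at 2.04, 1.84 and 1.67 against 1.99, 2.01 and 2.43 FPKM (log2 fold change -0.20, 95% interval -0.49 to 0.08, adjusted p = 0.216). POLA2 shares 35.1% of its exon bases with AP000944.2 on the same strand, which held at most 3 reads. PRIM2, the large primase subunit, passed the p threshold alone (log2 fold change -0.42, adjusted p = 0.0226). It missed it without BrM3-shAKR1B10 library 2 or 3 or BrM3-shNC library 1 or 2, with adjusted p between 0.056 and 0.0695, and was called lower without BrM3-shNC library 3, at -0.53.

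In polymerase delta only the catalytic subunit was called. POLD1 stood at 10.2, 10.4 and 10.6 FPKM in BrM3-shAKR1B10 against 15.8, 17.8 and 18.2 FPKM in BrM3-shNC (log2 fold change -0.73, SE 0.06, adjusted p = 1.7e-04). The accessory subunits POLD2 and POLD3 were lower by -0.45 and -0.48, short of the fold threshold, and POLD3 was called at -0.52 without BrM3-shAKR1B10 library 3 and at -0.51 without BrM3-shNC library 2. POLD4, the smallest accessory subunit, overlapped between groups at 6.53, 6.90 and 6.81 against 5.36, 6.01 and 6.61 FPKM (log2 fold change 0.17, 95% interval -0.02 to 0.36, adjusted p = 0.122). It was higher at the p threshold with centring on housekeeping genes (log2 fold change 0.27, adjusted p = 0.0435) and without BrM3-shNC library 3 (log2 fold change 0.24, adjusted p = 0.0368). POLD4 shares 21.3% of its exon bases with AP003419.1 on the same strand, where no reads were counted. The POLD1 to POLD2 ratio was lower in every knockdown library, at 0.412, 0.394 and 0.440 against 0.477, 0.517 and 0.516.

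In polymerase epsilon 3 of 4 subunits were called lower, and its pair of histone-fold subunits parted. POLE3 (chr9:113407235-113410672) stood at 16.9, 16.7 and 17.5 FPKM against 34.3, 35.3 and 37.9 FPKM, which like PRIM1 is 47.5% of the control (log2 fold change -1.07, SE 0.05, adjusted p = 2.1e-05). Which of these 2 genes fell further changed with the scaling and pseudocount. POLE4, which dimerizes with POLE3, stood at 17.4, 15.1 and 17.2 against 13.8, 16.0 and 15.4 FPKM, and its groups overlapped (log2 fold change 0.13, 95% interval -0.05 to 0.32, adjusted p = 0.205, and 0.23 with centring on housekeeping genes, short of the p threshold). From the 4th most abundant of the 56 genes in the controls, POLE3 came to be the 12th in the knockdown, and POLE4 moved from the 20th to the 13th. The POLE3 to POLE4 ratio was 2.47, 2.20 and 2.45 in the control libraries and 0.972, 1.11 and 1.02 in the knockdown libraries. POLE, the catalytic subunit, stood at 3.84, 3.79 and 4.09 against 5.84, 5.90 and 5.67 FPKM (log2 fold change -0.56, SE 0.05, adjusted p = 3.0e-04), and its call was lost with a pseudocount of 1 and with centring on housekeeping genes. POLE2 stood at 2.66, 2.29 and 2.60 against 4.08, 4.34 and 4.32 FPKM (log2 fold change -0.74, SE 0.08, adjusted p = 4.9e-04).

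**Figure D3:**
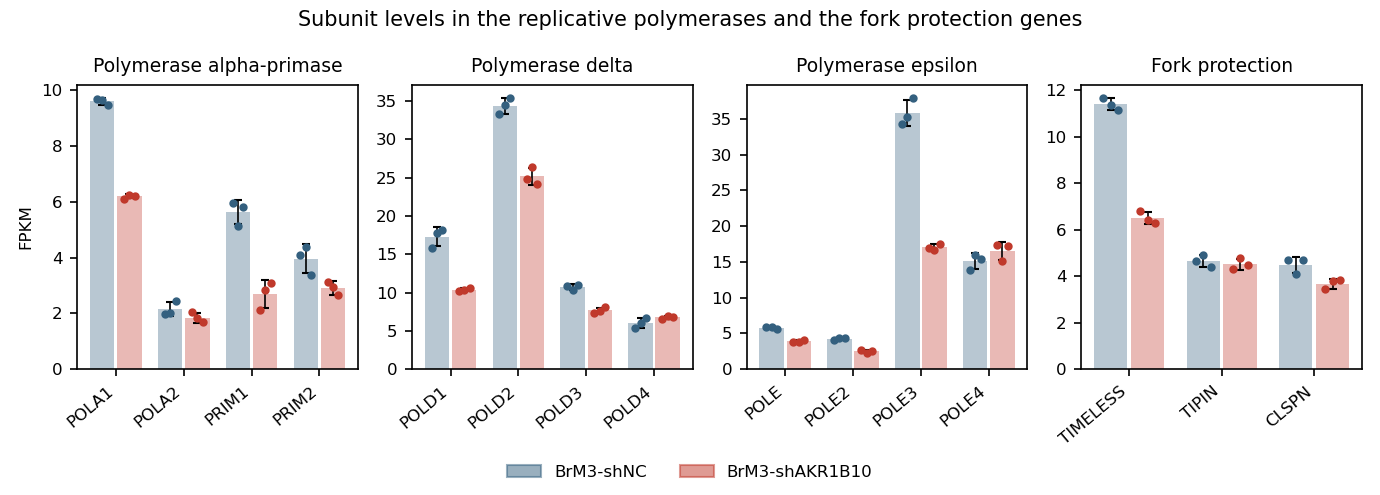
FPKM of the subunits of the 3 replicative polymerases and of the fork protection genes, as bars for the mean, error bars for the SD and points for the 3 libraries of each group. POLE3 drops from above to about the level of POLE4, and POLD4, POLE4 and TIPIN overlap between groups while POLD1, POLE3 and TIMELESS do not.

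All 6 genes of the clamp and its loader were lower at the p threshold, and 3 loader subunits were called. PCNA, the sliding clamp and the most abundant of the 56 genes in both groups, stood at 176, 165 and 166 FPKM in BrM3-shAKR1B10 against 223, 232 and 220.3 FPKM in BrM3-shNC (log2 fold change -0.42, SE 0.04, adjusted p = 3.2e-04), short of the fold threshold. RFC3 stood at 10.6, 10.6 and 9.97 against 15.8, 16.4 and 15.7 FPKM and fell most among the loader genes (log2 fold change -0.62, SE 0.04, adjusted p = 8.7e-05). RFC5 stood at 4.599, 5.25 and 5.33 against 8.02, 7.57 and 7.505 FPKM (log2 fold change -0.60, SE 0.07, adjusted p = 7.2e-04). RFC1, the large loader subunit, had the smallest difference of the group at 17.2, 17.7 and 17.7 against 22.8, 21.0 and 22.1 FPKM (log2 fold change -0.32, SE 0.04, adjusted p = 0.00113). RFC4 lay between at -0.41. RFC2 stood at 16.9, 14.5 and 15.9 against 23.1, 21.9 and 22.3 FPKM and sat at the edge of the fold threshold (log2 fold change -0.51, SE 0.06, adjusted p = 8.5e-04). Its call was lost without BrM3-shAKR1B10 library 2, at -0.45, and without BrM3-shNC library 1, at -0.49. It was also lost with a pseudocount of 1 (-0.48), with TPM (-0.47), under quantile scaling (-0.47) and with centring on housekeeping genes (-0.41).

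None of the 3 RPA genes was called, although all were lower without overlap. RPA1, which binds single-stranded DNA, was the firmest (log2 fold change -0.30, SE 0.03, adjusted p = 6.3e-04). RPA2 stood at 10.0, 11.8 and 11.95 FPKM against 13.8, 13.8 and 12.7 FPKM (log2 fold change -0.26, SE 0.08, adjusted p = 0.0348). RPA3, the smallest subunit, stood at 11.0, 11.3 and 8.74 against 13.6, 13.4 and 11.99 FPKM (log2 fold change -0.33, SE 0.11, adjusted p = 0.0423). RPA2 missed the p threshold without BrM3-shAKR1B10 library 1 or BrM3-shNC library 1 or 2, with adjusted p between 0.0552 and 0.0955. RPA3 missed it without BrM3-shAKR1B10 library 1 or 3 or BrM3-shNC library 1 or 2, with adjusted p between 0.054 and 0.109, and its log2 fold change was -0.22 without BrM3-shAKR1B10 library 3.

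Of the genes that finish Okazaki fragments, LIG1 was called lower and FEN1 was lower by less than the fold threshold. LIG1, the ligase that seals the nicks, stood at 11.1, 11.0 and 11.3 FPKM against 15.8, 15.7 and 16.6 FPKM (log2 fold change -0.53, SE 0.04, adjusted p = 1.1e-04). FEN1, which cuts the flaps, stood at 27.2, 30.2 and 28.5 against 38.2, 38.2 and 38.1 FPKM (log2 fold change -0.41, SE 0.04, adjusted p = 5.2e-04). The call for LIG1 was lost with a pseudocount of 1, with TPM, under quantile scaling and with centring on housekeeping genes. RNASEH2A, the catalytic subunit of RNase H2, was not tested, since it was listed at 0.140, 0.0760 and 0.186 FPKM against 0.329, 0.0487 and 0.286 FPKM, or between 3 and 22 reads. It shares 30.8% of its exon bases with THSD8 on the same strand, which held at most 3 reads. How counting treated reads on bases shared by genes is not given in the sources used here, and such reads may have been left out of both genes, so the levels of RNASEH2A, POLA2, POLD4, TIPIN and PRIM1, and, where strand was not used, MCM2 and GINS4, are uncertain.

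The fork protection genes split in the same way as the polymerase subunits. TIMELESS (chr12:56416373-56449403) stood at 6.81, 6.42 and 6.30 FPKM in BrM3-shAKR1B10 against 11.7, 11.4 and 11.2 FPKM in BrM3-shNC, which is 57.1% of the control (log2 fold change -0.80, SE 0.04, adjusted p = 4.4e-05). TIPIN, the partner that TIMELESS binds, overlapped between groups at 4.29, 4.76 and 4.50 against 4.67, 4.92 and 4.42 FPKM (log2 fold change -0.04, 95% interval -0.20 to 0.11, adjusted p = 0.604). It shares 21.0% of its exon bases with the pseudogene RPL9P25 on the same strand, where no reads were counted. With centring on housekeeping genes the value for TIPIN turned to 0.05. The TIMELESS to TIPIN ratio was 1.57, 1.34 and 1.39 against 2.47, 2.29 and 2.49. CLSPN, which encodes claspin, the mediator between a stalled fork and CHK1, was lower at the p threshold only (log2 fold change -0.28, adjusted p = 0.026). It missed that threshold without BrM3-shAKR1B10 library 1 or 2 or BrM3-shNC library 1 or 3, with adjusted p between 0.0528 and 0.08.

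CAF-1, the histone chaperone behind the fork, was lower in CHAF1A and CHAF1B, the genes of this role group, without reaching the fold threshold. RBBP4, a CAF-1 subunit placed in the list of other replication genes, differed less. It stood at 17.6, 16.3 and 15.9 FPKM against 19.2, 19.1 and 20.3 FPKM (log2 fold change -0.23, SE 0.05, adjusted p = 0.00955). CHAF1A, its large subunit, stood at 7.02, 7.49 and 7.65 FPKM against 9.58, 9.82 and 10.4 FPKM (log2 fold change -0.43, SE 0.05, adjusted p = 0.00104). CHAF1B stood at 2.88, 2.998 and 3.44 against 3.84, 4.34 and 4.06 FPKM (log2 fold change -0.39, SE 0.09, adjusted p = 0.0114). The CHAF1A to CHAF1B ratio overlapped between groups.

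The ratios of partner genes compare subunits within the same library. Of 16 pairs compared, 9 had lower ratios in all 3 knockdown libraries, 3 had higher ratios in all 3, and 4 overlapped. No such share was computed over other pairs of genes, so these counts cannot be read as particular to partner genes. Of single genes tested, 29.2% lay lower and 25.5% higher without overlap. The log2 ratio of FPKM + 0.1 differed most for POLE3 to POLE4 (-1.20), TIMELESS to TIPIN (-0.76), PRIM1 to PRIM2 (-0.64), POLA1 to POLA2 (-0.42) and DBF4 to CDC7 (-0.38). In the MCM ring, MCM2 lost ground to MCM7 (-0.20), MCM5 gained on MCM3 (0.17), and MCM4 to MCM6 overlapped. The CDC45 to MCM7 ratio overlapped as well, at -0.11. The ratios are given as a description and were not tested.

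**Figure D4:**
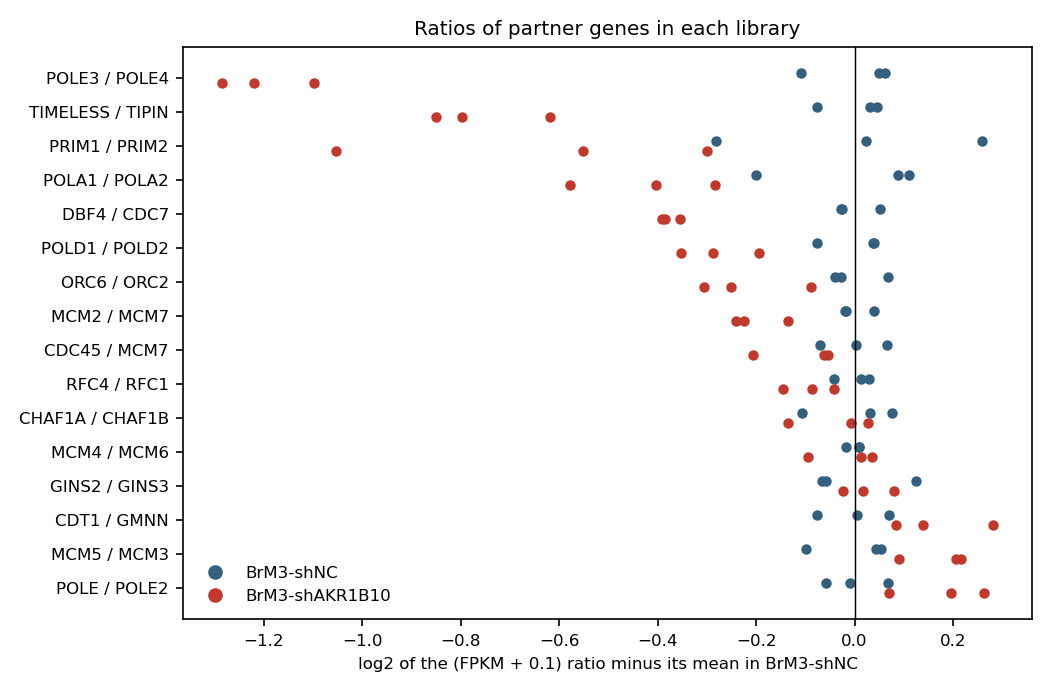
Log2 ratio of the FPKM + 0.1 of partner genes in each library, minus its mean in BrM3-shNC (x axis), for 16 pairs ordered by the difference between groups. The POLE3 to POLE4 and TIMELESS to TIPIN ratios of the knockdown libraries lie far left of the controls, at -1.20 and -0.76 on average, and the POLE to POLE2 ratio lies to the right, at 0.18.

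Other genes of replication had a smaller median fall. Of a list of 51 regulators, alternative clamp loaders, fork enzymes and chromatin factors, 50 were tested, with a median of -0.29 against -0.01 over all genes. Of the 50, 10 were called lower (20%, against 7.45% of all genes tested) and 0 higher (against 5.83%). At any fold 35 were lower (70%, against 23.1%). PIF1, a helicase that unwinds G-quadruplexes, had the lowest value, at 2.93, 3.16 and 3.52 FPKM against 9.14, 9.89 and 9.96 FPKM (log2 fold change -1.57, SE 0.08, adjusted p = 2.8e-05). TOP2A, the topoisomerase that untangles daughter strands, stood at 24.4, 26.7 and 26.2 against 60.7, 57.9 and 55.3 FPKM (log2 fold change -1.17). DBF4B, the other activator of CDC7, stood at 2.15, 2.15 and 2.21 against 4.82, 4.65 and 4.73 FPKM (log2 fold change -1.09, 95% interval -1.22 to -0.96), and DBF4 was at -0.81 (95% interval -0.95 to -0.68). CCNA2, the S phase cyclin (-1.04), DSCC1 of the alternative CTF18 loader (-0.98), SKP2, which targets CDT1 for degradation (-0.88), and UHRF1, the reader of hemimethylated DNA (-0.66), were also called. So were the nuclease DNA2 (-0.61), the FACT subunit SSRP1 (-0.56) and the helicase DDX11 (-0.50). DDX11 sat at the fold threshold, and its call was lost without BrM3-shAKR1B10 library 2 or 3 or BrM3-shNC library 1 or 2, with values of -0.49, and with a pseudocount of 1, TPM, quantile scaling and centring on housekeeping genes, with values from -0.47 to -0.40. SSRP1 was lost with that centring, at -0.46. RTEL1 was the one gene of the list with a mean under 1 FPKM over the 6 libraries and was not tested.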

How the data were processed

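PolyA RNA-seq of 3 BrM3-shAKR1B10 and 3 BrM3-shNC libraries was analysed. According to the study's methods and processing notes, the authors aligned reads with HISAT2 2.0.5, counted them with featureCounts 1.5.0-p3 and deposited FPKM per gene, with replicates not pooled. The use of strand in counting is not given in the sources used here. Gene identifiers and positions matched GENCODE 29 (GRCh38) for all 58735 genes. Because the deposited values were FPKM, limma 3.58.1 in R 4.3.3 (lmFit, eBayes with trend) was run on log2(FPKM + 0.1) over the 13150 genes that averaged 1 FPKM or more, with Benjamini-Hochberg adjustment over all of them, in place of the count-based test of the study, whose thresholds were kept. The product of FPKM and length gave whole reads (within 0.05) for 100% of values. A floor of 3 reads on a gene of 1 kilobase equals 0.163 to 0.177 FPKM, which covers counting error only. Replicate libraries differed by more than sampling noise (chi-square per gene 2.45 to 5.42). The pairs with BrM3-shNC library 1 gave 4.875 and 5.42, and all other pairs gave 2.45 to 2.70.

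The 57 genes, role groups, other lists and words were chosen with earlier results of these data known. Values in all libraries are given for AKR1B10, the called genes, the genes with the largest and smallest difference in each role group, and others that bear on a comparison, which were chosen after their values were seen. Of the other replication genes those called are named, along with RBBP4 as a subunit of CAF-1 and RTEL1, which was not tested. Scripts were tested on simulated data. Alternatives were pseudocounts of 1 and 0.01, no filter or a mean FPKM of at least 5, TPM, quantile scaling, centring on housekeeping genes, no trend, voom on recovered reads, protein-coding genes only, fold thresholds of 1 and none, a replicate block and each library left out. Promoters came from RefSeq (GRCh38.p14). Analysis used Python 3.11.15, numpy 2.4.6, pandas 2.3.3 and scipy 1.17.1.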

Additional observations from a re-analysis of the deposited data

How the results depend on the processing

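No replication gene was called higher, and no called gene changed sign, under any of the alternatives. The number called lower was 20 with a pseudocount of 1, 17 of 42 with a mean FPKM of at least 5, and 22 with TPM. It was 19 under quantile scaling, 18 with centring on housekeeping genes, and 24 with the remaining filters, tests and pseudocounts. Among the latter, voom on recovered reads kept the library sizes behind FPKM, so it could not show dependence on that scaling. The number was 2 with a log2 fold change threshold of 1 and 46 with none, where the other replication genes gave 4 and 35. Over all genes these thresholds gave 205 lower and 168 higher, and 3044 lower and 2548 higher. A pseudocount of 1 gave 708 lower and 497 higher over all genes. Centring on housekeeping genes gave 687 lower and 1161 higher, and a mean FPKM of at least 5 gave 532 lower and 290 higher. TPM gave 873 lower and 902 higher, or 49.2% lower against 56.1%. At any fold, 2 replication genes, ORC2 and POLD4, were higher with centring on housekeeping genes and 1, POLD4, without BrM3-shNC library 3.

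Same-numbered libraries did not deviate together (correlations -0.02, 0.00388 and 0.00383), so the numbers are not a pairing. With the replicate number as a block, 24 replication genes were lower and 0 higher, with 45 lower at any fold, and 967 genes in all were lower and 719 higher.

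Group medians moved with these settings. With a pseudocount of 1 they were -0.61 for CDC45-GINS, -0.45 for polymerase alpha-primase and -0.53 for polymerase epsilon, and the DBF4 to CDC7 log2 ratio was -0.33. With no filter the Okazaki group was at -0.41. With a mean FPKM of at least 5, polymerase alpha-primase was at -0.62, polymerase epsilon at -0.47 and fork protection at -0.80, since fewer genes were left. TPM gave -0.43 for MCM2-7, -0.62 for CDC45-GINS, -0.43 for clamp and loader and -0.44 for the Okazaki group. Quantile scaling gave -0.40 for MCM2-7, -0.42 for clamp and loader, -0.23 for RPA and -0.41 for the Okazaki group. Centring on housekeeping genes, which moved the median of all genes from -0.01 to 0.09, gave -0.0311 for ORC, -0.27 for licensing factors, -0.36 for MCM2-7, -0.56 for CDC45-GINS, -0.34 for firing factors, -0.54 for MCM8, -0.43 for polymerase alpha-primase, -0.37 for polymerase delta, -0.55 for polymerase epsilon, -0.36 for clamp and loader, -0.20 for RPA, -0.37 for the Okazaki group, -0.18 for fork protection and -0.31 for CAF-1. The cause was not tested where none is given.

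With each library left out, between 23 and 25 replication genes were lower, and 23 were lower in all 6 fits. Group medians then ranged from -0.48 to -0.44 for MCM2-7, -0.69 to -0.66 for CDC45-GINS, -0.58 to -0.48 for polymerase alpha-primase, -0.49 to -0.43 for clamp and loader and -0.34 to -0.23 for fork protection. Of 46 genes past the p threshold, 41 stayed past it in all 6 fits. Before the start only, 13 promoters held an E2F word (26%, against 2.787% of all) and 0 held TTTGAA (against 13.57%). Genes with few reads carry the largest counting error at this depth, and RNASEH2A, POLE2 and PRIM1 rest on the fewest reads.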
